A study of Homo sapiens with 10 samples.

Results

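The genes described here are 52 genes of mitosis, the stage at which a cell separates its copied chromosomes and divides. They were set as a list of symbols, chosen with earlier results of these data known. All were found in both gene count tables of the study, among 19695 genes listed in at least 1 of them. RNA was sequenced from T47D, an established human luminal breast cancer cell line, 72 h after transfection with control siRNA, TRPS1 siRNA or CHD4 siRNA, with 2 libraries in each group. TRPS1 is a GATA-type transcription factor, and CHD4 is the ATPase of the NuRD chromatin remodeling complex. The knockdowns ask which transcripts change when either protein is depleted. By the labels all 3 groups received an siRNA, and the study's methods give the same lipid reagent for the siRNAs. Another passage of the methods names an shRNA for CHD4. Both knockdowns were compared with the same pair of control libraries. TRPS1 binding was mapped in T47D cells by ChIP-seq with 2 TRPS1 and 2 input libraries, deposited as 1 list of 1844 peaks. The labels do not say whether the libraries of a group came from separate cultures, so the tests measure the spread between these libraries, which may be technical.

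Entry into mitosis requires CDK1 bound to a B-type cyclin, helped by the kinases PLK1 and Aurora A. The kinetochores then attach chromosomes to the spindle, the spindle assembly checkpoint holds the cell until all are attached, and the anaphase-promoting complex marks cyclin B and securin for destruction so that sister chromatids part. Most of these genes are transcribed together late in the cell cycle. The DREAM complex keeps them silent in resting cells, and B-MYB with FOXM1 turns them on, through a promoter element called the cell cycle genes homology region (CHR) and nearby CCAAT boxes. Their summed RNA is widely used as a measure of proliferation in tumors, and bulk libraries such as these cannot tell fewer dividing cells from less RNA per cell.

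Promoter windows of RefSeq (GRCh38.p14, from 250 bases before to 50 bases after a transcription start) were available for 44 of the 52 genes. AURKA, BIRC5, BUB3, FOXM1, RACGAP1, TPX2, TTK and UBE2C had no window and are left out of the promoter and peak results. Of these, AURKA, BIRC5, FOXM1 and UBE2C fell upon TRPS1 silencing, and UBE2C had the lowest log2 fold change of the list. The CHR letters (TTTGAA or TTCGAA, either strand) lay in a window of 34 of these 44 genes (77.3%), against 19.5% of all 27305 genes of the same table. CCAAT on either strand lay in 35 of the 44 (79.5%), against 39.7% of all genes, and 28 genes held both. The E2F letters TTTCGCGC or TTTGGCGC were present for 2 of the 44 genes (4.55%, against 1.4% of all genes). GATA letters (GATA between A or T before it and A or G behind it, either strand), the kind of element TRPS1 is known to recognize, were present for 10 of the 44 (22.7%, against 29.1% of all genes). A match of letters is a description of the window and does not show that a factor binds there. The 150 bases before the start are printed here for 3 genes that fell upon TRPS1 silencing and hold both elements, for PLK1 and INCENP because they fell upon both knockdowns, and for CENPE, which holds neither CHR nor CCAAT letters and had the highest log2 fold change of the 52 upon TRPS1 silencing. This choice does not stand for the list. CCNB1, CCNA2, NEK2, PTTG1 and KIF20A also fell upon TRPS1 silencing and hold no CHR letters in a window. CENPF holds both elements, and its log2 fold change upon TRPS1 silencing was 0.20. Capitals mark the CHR and CCAAT letters.
PLK1 (chr16:23678739-23678888, plus strand): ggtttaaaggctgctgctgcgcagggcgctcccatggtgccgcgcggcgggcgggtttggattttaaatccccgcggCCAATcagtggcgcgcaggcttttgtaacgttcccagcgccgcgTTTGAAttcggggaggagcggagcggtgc
INCENP (chr11:62123861-62124010, plus strand): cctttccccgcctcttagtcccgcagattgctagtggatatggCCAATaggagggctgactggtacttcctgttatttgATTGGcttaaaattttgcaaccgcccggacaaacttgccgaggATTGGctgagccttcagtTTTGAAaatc
CCNB2 (chr15:59104996-59105145, plus strand): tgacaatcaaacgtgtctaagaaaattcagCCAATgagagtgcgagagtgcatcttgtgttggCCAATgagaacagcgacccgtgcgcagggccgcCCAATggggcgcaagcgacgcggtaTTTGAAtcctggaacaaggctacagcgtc
CDC20 (chr1:43358831-43358980, plus strand): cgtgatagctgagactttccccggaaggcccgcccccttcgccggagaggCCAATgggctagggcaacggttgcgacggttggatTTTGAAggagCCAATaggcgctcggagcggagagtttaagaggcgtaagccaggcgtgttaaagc
CKS1B (chr1:154974531-154974680, plus strand): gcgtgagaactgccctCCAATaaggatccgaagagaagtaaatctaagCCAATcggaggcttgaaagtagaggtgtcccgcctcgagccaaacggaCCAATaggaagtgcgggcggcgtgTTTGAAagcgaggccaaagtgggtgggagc
CENPE (chr4:103198344-103198493, minus strand): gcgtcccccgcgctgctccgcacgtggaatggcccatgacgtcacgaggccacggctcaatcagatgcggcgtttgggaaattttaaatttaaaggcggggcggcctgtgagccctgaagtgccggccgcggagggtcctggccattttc
In PLK1, CCNB2 and CKS1B the CHR letters began 29, 29 and 30 bases before the start, each downstream of a CCAAT box on the same strand. The median log2 fold change upon TRPS1 silencing was -0.75 for the 34 genes with CHR letters and -1.06 for the 10 without, and upon CHD4 silencing it was -0.68 and -0.79.

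The libraries held 10333138 to 14668358 counts in total, and each of the 52 genes was above 3 counts in every library, except SPC25 with 2 counts in CHD4 siRNA 1. Levels are given as CPM, counts scaled to a common library size, after adjusting all 6 libraries together with TMM factors, and 3 counts, taken as the limit of detection, correspond to 0.197 to 0.288 CPM. TRPS1 itself had 1448 and 2274 CPM under control siRNA, 1169 and 723 under TRPS1 siRNA and 2455 and 1591 under CHD4 siRNA. Its log2 fold change upon TRPS1 silencing was -0.97 ± 0.39, a fold below 2, with both TRPS1 siRNA libraries under both controls. CHD4 had 301 and 286 CPM in the control libraries, 303 and 269 CPM upon TRPS1 silencing and 96.0 and 54.4 CPM upon CHD4 silencing, with a log2 fold change of -1.96 ± 0.42 upon CHD4 silencing. In both knockdowns replicate 1 kept more of the targeted transcript than replicate 2. Control siRNA 1 stood apart from the other libraries: counts were found for 14636 genes in it and for 16779 to 17796 in the others, and its log2 CPM correlated with theirs at r = 0.837 to 0.861 across 13269 genes, against 0.939 to 0.975 between the other libraries. Among marker lists, all 10 luminal genes passed 3 counts in every library, and their summed level was 12844 to 16131 CPM in the controls and 5793 to 7966 CPM in the knockdowns. The endothelial list summed to at most 1.68 CPM, the leukocyte list to at most 9.33 CPM and the fibroblast list to 61.1 to 157 CPM. The basal epithelial list summed to 27.9 and 35.3 CPM in the controls and to 19.4 to 52.8 CPM in the knockdowns. The part of these differences in the results below was not tested.

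Upon TRPS1 silencing 16 mitosis genes fell and 0 rose, and the medians of the role groups ran from -1.22 for the anaphase-promoting complex group, -1.12 for the chromosomal passenger complex and -1.09 for entry kinases and cyclins to -0.39 for kinetochore genes on the log2 scale. All 52 were tested against control siRNA with edgeR's quasi-likelihood test, and a gene is said to fall or rise when it changed by more than 2-fold at an unadjusted p under 0.05, the threshold the study used. Of all 12921 genes tested, 3.17% fell and 2.7% rose by this rule. Because the list was chosen with earlier results of these data known, its counts beside such shares are a description, here and below. The 16 genes were CCNB1, CCNB2, CCNA2, CKS1B, PLK1, AURKA, NEK2, FOXM1, INCENP, BIRC5, CDCA8, CDC20, UBE2C, PTTG1, PRC1 and KIF20A. The log2 fold change was negative for 50 of the 52, with a median of -0.85, against a median of -0.02 over all genes tested. Both TRPS1 siRNA libraries lay below both controls for 30 genes, where 21.6% of all genes did so, and above both for 0, where 22.5% did. After Benjamini-Hochberg adjustment over all genes tested, 0 of the 52 passed an adjusted p under 0.05, as did 0% of all genes, although 17 had an unadjusted p under 0.05. The adjusted p of all 16 genes was 0.659 in edgeR's quasi-likelihood test. By adjusted p, edgeR's likelihood ratio test also gave 0 genes of the list, where 0.263% of all genes passed. DESeq2 gave 1, which was UBE2C, where 0.302% of all genes passed.

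Upon CHD4 silencing 5 of the 51 genes tested fell and 0 rose, where 2.85% and 2.6% of all 12918 genes did. They were PLK1, AURKA, INCENP and UBE2C, which had also fallen upon TRPS1 silencing, and CDCA3. The log2 fold change was negative for 50 of the 51, with a median of -0.69 against -0.02 over all genes. Both CHD4 siRNA libraries were below both controls for 30 of the 52 genes, where 20% of all genes tested were, and above both for 0, where 19.8% were. For 27 genes all 4 knockdown libraries were below both controls, which the comparisons share, and 13% of all 13269 genes had this order. An adjusted p under 0.05 was reached by 0 genes of the list in edgeR's quasi-likelihood test and by 0% of all genes. The 5 genes that fell were also the 5 with an unadjusted p under 0.05, with an adjusted p of 0.792 each. By adjusted p, edgeR's likelihood ratio test and DESeq2 gave 0 genes of the list as well, where 0.449% and 0.387% of all genes passed. The count of 5 became 8 with DESeq2 (4.04% of all genes) and 10 with no filter on low counts (3.55% of all genes), where UBE2C also passed an adjusted p under 0.05, as did 0.585% of all genes.

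These counts moved when single libraries were left out, and so did those over all genes. The median log2 fold change of the list moved as well. Upon TRPS1 silencing it was -0.45 without TRPS1 siRNA 1 and -1.30 without TRPS1 siRNA 2. For CHD4 silencing it was -0.27 without CHD4 siRNA 1 and -1.25 without CHD4 siRNA 2. Upon TRPS1 silencing 0 genes of the list fell without TRPS1 siRNA 1 (0.336% of all genes), 6 without TRPS1 siRNA 2 (0.814%), 19 without control siRNA 1 (2.4%) and 18 without control siRNA 2 (14.4%). Without control siRNA 2, 20 genes of the list passed an adjusted p under 0.05, but so did 47.4% of all genes, and without control siRNA 1, 5 did, where 2.27% of all genes did. Upon CHD4 silencing 0 genes fell without CHD4 siRNA 1 (0.406% of all genes), 7 without control siRNA 1 (2.06%) and 10 without control siRNA 2 (13.4%). Without control siRNA 2, 7 genes passed an adjusted p under 0.05, where 30.3% of all genes did. When libraries were scaled by their totals alone, the median of all genes moved to 0.10 and 0.11 from -0.02 in each. With this scaling 7 and 3 genes of the list fell, where 1.96% and 1.72% of all genes did. The mean log2 ratio to the controls stayed negative for 49 and 47 of the 52. Its median over all genes was 0.15 and 0.16.

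**Figure D1:**
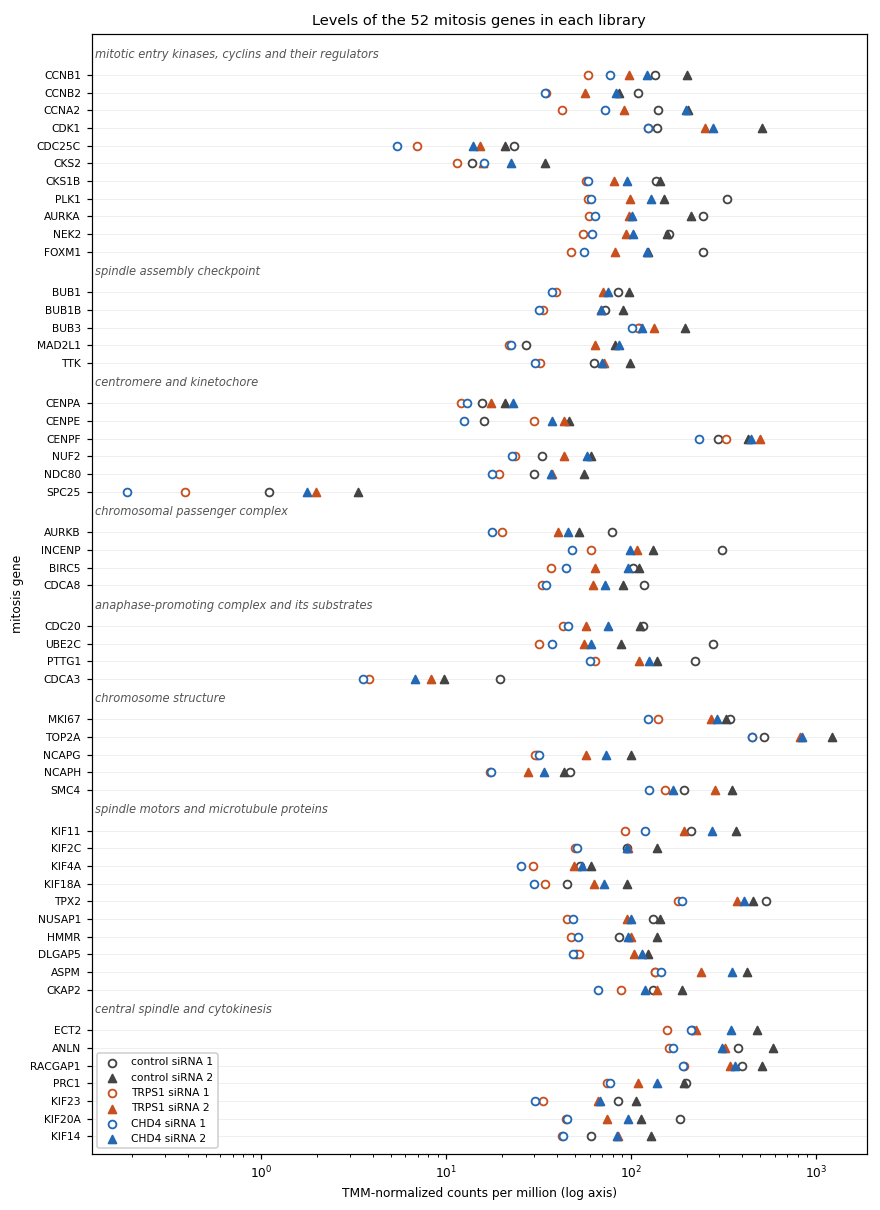
Normalized level of each of the 52 mitosis genes in the 6 libraries, grouped by role, in TMM-normalized CPM on a log axis. Open circles are replicate 1 and filled triangles replicate 2, and in each knockdown the open circle lies left of the triangle for all 52 genes.

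Of the mitotic entry kinases, cyclins and their regulators 8 of 11 fell upon TRPS1 silencing and 2 of 11 upon CHD4 silencing. PLK1, the polo-like kinase that drives entry, centrosome maturation and cytokinesis (chr16:23678889-23690367), had 332 and 151 CPM under control siRNA, 58.3 and 99.0 under TRPS1 siRNA and 60.7 and 128 under CHD4 siRNA. All knockdown libraries lay below both controls, but the controls themselves differed by more than 2-fold. Its log2 fold change was -1.61 ± 0.50 (± standard error, here and below) upon TRPS1 silencing and -1.35 ± 0.54 upon CHD4 silencing. AURKA, the Aurora A kinase of the spindle poles (chr20:56369390-56392215), had 246 and 211 CPM in the control libraries, 59.0 and 97.9 CPM upon TRPS1 silencing and 64.3 and 102 CPM upon CHD4 silencing. Here the controls were close to each other, and the log2 fold changes were -1.53 ± 0.39 and -1.45 ± 0.40. FOXM1, the transcription factor that activates many of these genes, had 244 and 123 CPM under control siRNA, 47.2 and 81.6 under TRPS1 siRNA and 55.8 and 123 under CHD4 siRNA. It fell upon TRPS1 silencing (-1.51 ± 0.48), whereas CHD4 siRNA 2 lay next to control siRNA 2 and the log2 fold change upon CHD4 silencing was -1.03 ± 0.52.

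All 3 cyclins of the list fell upon TRPS1 silencing. CCNB1, cyclin B1, had 136 and 201 CPM in the control libraries, 58.8 and 97.7 CPM upon TRPS1 silencing and 77.3 and 122 CPM upon CHD4 silencing, with log2 fold changes of -1.10 ± 0.41 upon TRPS1 and -0.75 ± 0.42 upon CHD4 silencing. CCNB2, cyclin B2, went from 109 and 85.7 CPM in the controls to 34.9 and 56.2 CPM with TRPS1 siRNA and 34.2 and 82.9 CPM with CHD4 siRNA, with log2 fold changes of -1.09 ± 0.39 and -0.72 ± 0.49. For both cyclins the CHD4 siRNA libraries were also below both controls, without passing the fold threshold. CCNA2, cyclin A2, which acts in S phase and early mitosis, had 139.6 and 203 CPM under control siRNA, 42.4 and 91.2 under TRPS1 siRNA and 72.4 and 199 under CHD4 siRNA. TRPS1 siRNA libraries were both below the controls (log2 fold change -1.35 ± 0.47), whereas CHD4 siRNA 2 reached the level of control siRNA 2 and the CHD4 value was -0.32 ± 0.53.

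CDK1, the kinase that the B cyclins activate, did not separate the groups. Its level was 138 and 511 CPM in the control libraries, 124 and 253 CPM upon TRPS1 silencing and 123 and 279 CPM upon CHD4 silencing. The controls differed by more than 3-fold, control siRNA 1 lay among the knockdown libraries, and the log2 fold changes were -0.78 ± 0.66 and -0.68 ± 0.66. CKS2, a small subunit of CDK complexes, gave the highest value of this group upon CHD4 silencing, with 13.9 and 34.5 CPM under control siRNA, 11.4 and 15.8 under TRPS1 siRNA and 16.0 and 22.5 under CHD4 siRNA and a log2 fold change of -0.32 ± 0.53. CKS1B, NEK2 and CDC25C, the latter a phosphatase that activates CDK1, had knockdown libraries below both controls in both comparisons, with log2 fold changes upon TRPS1 and CHD4 silencing of -0.97 and -1.18 for CDC25C, -1.01 and -0.86 for CKS1B and -1.08 and -0.93 for NEK2.

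The chromosomal passenger complex, whose Aurora B kinase corrects wrong chromosome attachments, has 4 genes in the list. For all 4 both libraries of each knockdown were below both controls, 3 of the 4 fell upon TRPS1 silencing and 1 upon CHD4 silencing. INCENP, its scaffold (chr11:62124011-62153169), had 312 and 131 CPM under control siRNA, 60.7 and 108 under TRPS1 siRNA and 47.8 and 98.4 under CHD4 siRNA. Control siRNA 1 was more than 2-fold above control siRNA 2, and the log2 fold changes were -1.39 ± 0.53 and -1.59 ± 0.55. BIRC5, or survivin, had 102 and 110.2 CPM in the control libraries, 37.0 and 64.1 CPM upon TRPS1 silencing and 44.5 and 96.0 CPM upon CHD4 silencing, with log2 fold changes of -1.06 ± 0.39 and -0.59 ± 0.46. CDCA8, or borealin, went from 117 and 91.1 CPM in the controls to 33.1 and 62.5 CPM with TRPS1 siRNA and 34.5 and 72.8 CPM with CHD4 siRNA. It fell upon TRPS1 silencing (-1.11 ± 0.43), with -0.95 ± 0.46 upon CHD4 silencing. AURKB itself had log2 fold changes of -1.12 ± 0.47 and -1.04 ± 0.54 and did not pass the test in either comparison.

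The anaphase-promoting complex group, with its activator, its ubiquitin-conjugating enzyme and its substrates, had 3 of 4 genes that fell upon TRPS1 silencing and 2 of 4 upon CHD4 silencing. UBE2C, the ubiquitin-conjugating enzyme of the complex (chr20:45812644-45816952), had 279 and 88.7 CPM in the control libraries, 31.7 and 55.7 CPM upon TRPS1 silencing and 37.3 and 61.0 CPM upon CHD4 silencing. Its log2 fold changes of -2.06 ± 0.62 and -1.89 ± 0.59 were the lowest of the list in both knockdowns, and the controls differed by more than 3-fold. CDC20, the activator of the complex and target of the checkpoint, had 116 and 112 CPM under control siRNA, 43.1 and 57.2 under TRPS1 siRNA and 45.8 and 75.2 under CHD4 siRNA. The controls were nearly equal, and CDC20 fell upon TRPS1 silencing (-1.18 ± 0.34), with -0.90 ± 0.40 upon CHD4 silencing. PTTG1, or securin, which guards sister chromatid cohesion, had 221 and 138 CPM in the control libraries, 63.5 and 110.2 CPM upon TRPS1 silencing and 60.3 and 125 CPM upon CHD4 silencing, and its log2 fold changes were -1.04 ± 0.43 and -0.95 ± 0.48. CDCA3, a mitotic entry factor that the complex degrades, was the gene that fell upon CHD4 silencing alone by the threshold, at 19.7 and 9.68 CPM under control siRNA, 3.84 and 8.29 under TRPS1 siRNA and 3.55 and 6.75 under CHD4 siRNA. The log2 fold changes were -1.26 ± 0.60 upon TRPS1 and -1.50 ± 0.60 upon CHD4 silencing, and the direct difference between the knockdowns, -0.24 ± 0.49, did not pass the test.

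In the central spindle and cytokinesis group, 2 of 7 genes fell upon TRPS1 silencing and 0 of 7 upon CHD4 silencing, by the same test. KIF20A, a kinesin that brings passenger proteins to the central spindle, went from 184 and 114 CPM in the controls to 44.3 and 74.1 CPM with TRPS1 siRNA and 45.1 and 96.6 CPM with CHD4 siRNA. Its log2 fold changes were -1.32 ± 0.43 and -1.06 ± 0.49. PRC1, which bundles the microtubules of the central spindle, had 199 and 193 CPM under control siRNA, 73.9 and 109.5 under TRPS1 siRNA and 77.4 and 139 under CHD4 siRNA, with close controls and log2 fold changes of -1.09 ± 0.35 and -0.85 ± 0.41. ECT2, the exchange factor that starts furrow ingression, had 215 and 483 CPM in the control libraries, 157 and 226 CPM upon TRPS1 silencing and 213 and 349 CPM upon CHD4 silencing. Control siRNA 1 lay within the range of the knockdown libraries, and the log2 fold changes were -0.86 ± 0.47 and -0.31 ± 0.49. KIF14, a kinesin of the midbody, had the highest value of the group upon TRPS1 silencing, with 60.4 and 128 CPM under control siRNA, 42.2 and 84.6 under TRPS1 siRNA and 43.0 and 84.1 under CHD4 siRNA and a log2 fold change of -0.57 ± 0.52. For ANLN, RACGAP1 and KIF23 both libraries of each knockdown lay below both controls, with log2 fold changes from -1.01 to -0.70.

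Spindle assembly checkpoint genes fell in neither comparison (0 of 5), with medians of -0.63 and -0.68. BUB1B, the checkpoint protein BubR1, had 72.0 and 90.7 CPM under control siRNA, 33.3 and 68.8 under TRPS1 siRNA and 31.8 and 68.7 under CHD4 siRNA, with all knockdown libraries below both controls and log2 fold changes of -0.66 ± 0.45 and -0.69 ± 0.47. BUB1, the kinase that recruits it, had 84.7 and 97.5 CPM in the control libraries, 39.2 and 70.8 CPM upon TRPS1 silencing and 37.3 and 75.2 CPM upon CHD4 silencing, with log2 fold changes of -0.72 ± 0.41 and -0.69 ± 0.45. MAD2L1, which inhibits CDC20, was at 26.9 and 81.6 CPM under control siRNA, 22.01 and 64.2 under TRPS1 siRNA and 22.4 and 85.7 under CHD4 siRNA. Replicates differed by more than 2-fold in every group, groups overlapped, and the log2 fold changes were -0.32 ± 0.69 and 0.00 ± 0.73.

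Among centromere and kinetochore genes 0 of 6 fell, their medians of -0.39 and -0.21 were the nearest to 0 of the role groups, and the libraries of knockdowns and controls overlapped for every gene in both comparisons. CENPF, a large kinetochore and nuclear matrix protein of late cell cycle, had 296 and 429 CPM in the control libraries, 328 and 502 CPM upon TRPS1 silencing and 235 and 448 CPM upon CHD4 silencing. TRPS1 siRNA 2 was the highest of the 6 libraries, and the log2 fold changes were 0.20 ± 0.38 and -0.08 ± 0.44, the latter above 0 when libraries were scaled by totals alone. CENPE, the kinesin that moves chromosomes to the spindle equator, had 16.0 and 46.2 CPM under control siRNA, 29.8 and 43.6 under TRPS1 siRNA and 12.5 and 37.2 under CHD4 siRNA, with 0.25 ± 0.56 and -0.31 ± 0.67. CENPA, the histone variant of centromeres, was at 15.7 and 20.9 CPM in the control libraries, 12.01 and 17.4 CPM upon TRPS1 silencing and 12.9 and 23.1 CPM upon CHD4 silencing, with log2 fold changes of -0.31 ± 0.42 and -0.02 ± 0.47, the latter also above 0 with scaling by totals. NDC80, the microtubule-binding subunit of the outer kinetochore, had the lowest value of the group upon CHD4 silencing, -0.64 ± 0.52, at 29.9 and 56.0 CPM under control siRNA, 19.4 and 37.3 under TRPS1 siRNA and 17.8 and 37.1 under CHD4 siRNA. SPC25, of the same complex, was at 1.10 and 3.33 CPM in the control libraries. Its level was 0.384 and 1.97 CPM upon TRPS1 silencing and 0.187 and 1.77 CPM upon CHD4 silencing. This gene was near the limit of detection in TRPS1 siRNA 1 and below it in CHD4 siRNA 1. It was filtered out of the CHD4 comparison, and its log2 fold change upon TRPS1 silencing was -0.86 ± 0.98.

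Of 5 chromosome structure genes 0 fell in either comparison, and both libraries lay below both controls for 2 upon TRPS1 and 3 upon CHD4 silencing. MKI67, the antigen Ki-67 used to score proliferation in tumors, had 345 and 328 CPM in the control libraries, 141 and 271 CPM upon TRPS1 silencing and 124 and 293 CPM upon CHD4 silencing. The controls differed little, both knockdowns lay below them in both libraries, and the log2 fold changes were -0.70 ± 0.40 and -0.68 ± 0.47. TOP2A, the topoisomerase that untangles sister chromatids, was at 523 and 1218 CPM under control siRNA, 454 and 819.9 under TRPS1 siRNA and 450.1 and 842 under CHD4 siRNA. Control siRNA 1 lay between replicates 1 and 2 of both knockdowns, and the log2 fold changes were -0.45 ± 0.51 and -0.42 ± 0.51. NCAPH, a condensin subunit, went from 46.7 and 43.6 CPM in the controls to 17.3 and 27.8 CPM with TRPS1 siRNA and 17.5 and 34.0 CPM with CHD4 siRNA. It had an unadjusted p under 0.05 upon TRPS1 silencing but a fold below 2 (-0.99 ± 0.40), and -0.80 ± 0.45 upon CHD4 silencing. NCAPG, of the same complex, was at 30.9 and 100.1 CPM in the control libraries, 30.4 and 57.2 CPM upon TRPS1 silencing and 31.8 and 73.2 CPM upon CHD4 silencing, with overlapping groups and log2 fold changes of -0.57 ± 0.62 and -0.31 ± 0.64. SMC4, the condensin ATPase, had 195 and 353 CPM under control siRNA, 152 and 285 under TRPS1 siRNA and 125 and 169.9 under CHD4 siRNA. Only its CHD4 siRNA libraries were both below the controls, with -0.89 ± 0.43 against -0.32 ± 0.46 upon TRPS1 silencing.

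Among spindle motors and microtubule proteins 0 of 10 fell in either comparison. KIF11, the motor Eg5 that pushes spindle poles apart, had 211 and 368 CPM in the control libraries, 93.1 and 194 CPM upon TRPS1 silencing and 119 and 276 CPM upon CHD4 silencing. The TRPS1 value of -1.01 ± 0.48 passed a fold of 2 but not the test, and the CHD4 value was -0.54 ± 0.50. NUSAP1, which bundles spindle microtubules, had 132 and 143 CPM under control siRNA, 45.2 and 94.6 under TRPS1 siRNA and 48.6 and 99.7 under CHD4 siRNA, with all knockdown libraries below both controls and log2 fold changes of -0.97 ± 0.44 and -0.88 ± 0.44. DLGAP5, a stabilizer of kinetochore fibers, had overlapping groups, at 50.4 and 123 CPM in the control libraries, 52.4 and 104 CPM upon TRPS1 silencing and 48.5 and 115 CPM upon CHD4 silencing, with log2 fold changes of -0.14 ± 0.55 and -0.08 ± 0.58, the latter above 0 with scaling by totals. The other 7 genes had log2 fold changes from -0.84 (TPX2) to -0.49 (CKAP2) upon TRPS1 silencing and from -0.79 (CKAP2) to -0.16 (ASPM) upon CHD4 silencing.

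**Figure D2:**
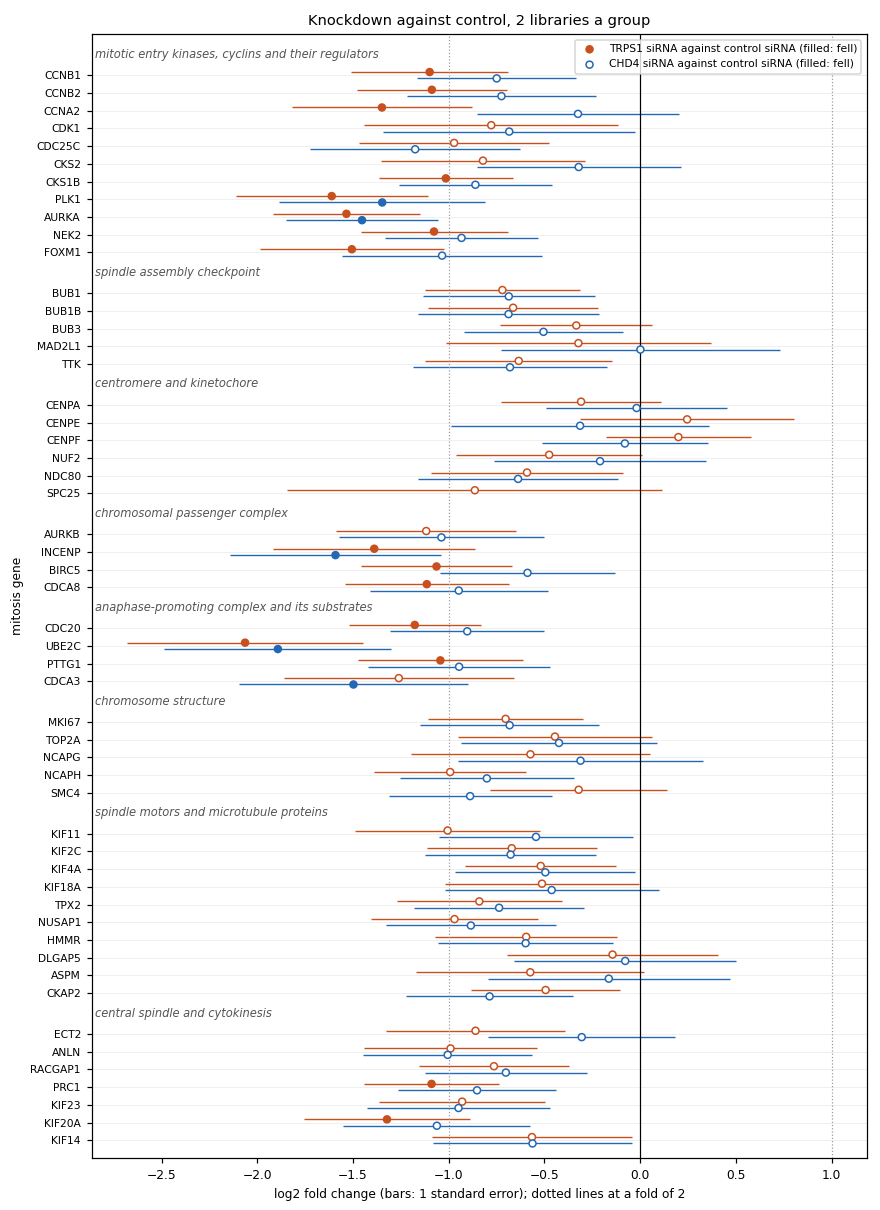
Log2 fold change against control siRNA of each mitosis gene upon TRPS1 (orange) and CHD4 (blue) silencing, with bars of 1 standard error and filled points for genes that fell by more than 2-fold at an unadjusted p under 0.05. Of the 16 filled orange points, 8 are in the kinase and cyclin group, 3 in the passenger group and 3 in the anaphase-promoting complex group. The central spindle and cytokinesis group holds 2. Of the 5 filled blue points, 2, 1, 2 and 0 are in these groups. UBE2C is farthest left in both colors.

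The change depended on which control library was used. Against control siRNA 1 alone, the median log2 change of the 52 genes was -0.67 upon TRPS1 silencing and -0.61 upon CHD4 silencing, against 0.03 and 0.04 over all 13269 genes. Both knockdown libraries were below that control for 30 of the 52 genes in each case, where 43.8% and 42.1% of all genes were. Against control siRNA 2 alone, the medians were -1.0 and -0.93 (0.01 and -0.01 over all genes), and all 52 genes had a negative mean change in both knockdowns. Both libraries were below control siRNA 2 for 51 genes upon TRPS1 silencing, with CENPF the exception, and for 49 upon CHD4 silencing, where 39.6% and 38.4% of all genes were. The extremes moved with the control as well. Against control siRNA 1, values ran from -2.73 (UBE2C) to 1.17 (CENPE) upon TRPS1 silencing and from -2.54 (UBE2C) to 0.75 (ASPM) upon CHD4 silencing. Against control siRNA 2, the highest were -0.08 (CENPF) and -0.28 (CENPA), and the lowest were those of SPC25, which had 4 and 2 counts in replicate 1 of the knockdowns.

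The controls differed between themselves in these genes. Control siRNA 1 was below control siRNA 2 for 34 genes and above it for 18, with a median log2 ratio of -0.38, where 51.1% of all genes were below. PLK1, INCENP, UBE2C and CDCA3 were more than 2-fold higher in control siRNA 1, and CDK1, CKS2, MAD2L1, CENPE, SPC25, TOP2A, NCAPG, KIF18A, DLGAP5, ASPM, ECT2 and KIF14 were more than 2-fold higher in control siRNA 2. The range was from -1.88 (CDK1) to 1.65 (UBE2C). Of the 16 genes that fell upon TRPS1 silencing, 12 were higher in control siRNA 1 than in control siRNA 2, as were all 5 that fell upon CHD4 silencing and 6 of the other 36 in the TRPS1 comparison. Genes higher in control siRNA 1 spanned a median of 18.4 kb of genome and those lower in it 34.7 kb. Across the 52 genes the span and the control 1 to control 2 ratio had a Spearman correlation of -0.38, given as a description, since the points share both libraries.

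**Figure D3:**
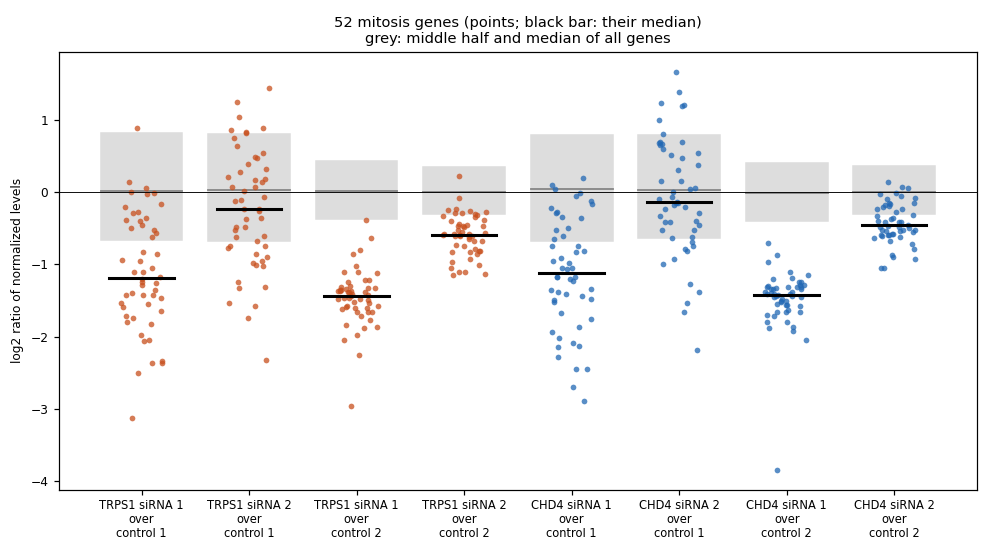
Log2 ratio of each knockdown library to each control library for the 52 mitosis genes (points, black bar at their median), with the interquartile range and median of all 13269 genes in grey. Medians run from -1.43 (TRPS1 siRNA 1 over control siRNA 2) to -0.14 (CHD4 siRNA 2 over control siRNA 1), and points spread most widely over control siRNA 1.

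Replicate 1 of each knockdown was lower than replicate 2 throughout the list. TRPS1 siRNA 1 was below TRPS1 siRNA 2 for 52 of 52 genes, with a median log2 ratio of -0.85, and CHD4 siRNA 1 was below CHD4 siRNA 2 for 52 of 52, with a median of -1.06. Over all genes the shares were 48% and 49.5%. The median log2 fold changes against the controls, -0.85 and -0.69, were no larger than these differences between replicates. BUB3, a checkpoint protein, differed least, by -0.28 and -0.17. Summed over the 52 genes, the level was 7815 and 10063 CPM in the controls, 3751 and 6685 CPM in TRPS1 siRNA 1 and 2, and 3737 and 7382 CPM in CHD4 siRNA 1 and 2. The sums of the knockdowns, scaled with TMM factors, thus lay below both controls in every library. As a share of raw counts the order differed for CHD4 siRNA 2. There the 52 genes took 0.7888%, above control siRNA 1 (0.7256%) and below control siRNA 2 (0.9545%). TRPS1 siRNA 1 held the lowest level of 26 genes and CHD4 siRNA 1 of 25, and control siRNA 1 that of ASPM by a narrow margin, while control siRNA 2 held the highest level of 31 genes and control siRNA 1 of 18. The replicate 1 libraries had the smallest totals of the series, 10333138 and 10754802 counts, and kept more of the targeted transcript. MALAT1, a nuclear noncoding RNA, took 6.56% and 6.06% of their counts, 5.04% and 4.74% in replicate 2 of the knockdowns and 2.08% and 4.59% in the controls. The part of any of these in the differences was not tested.

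**Figure D4:**
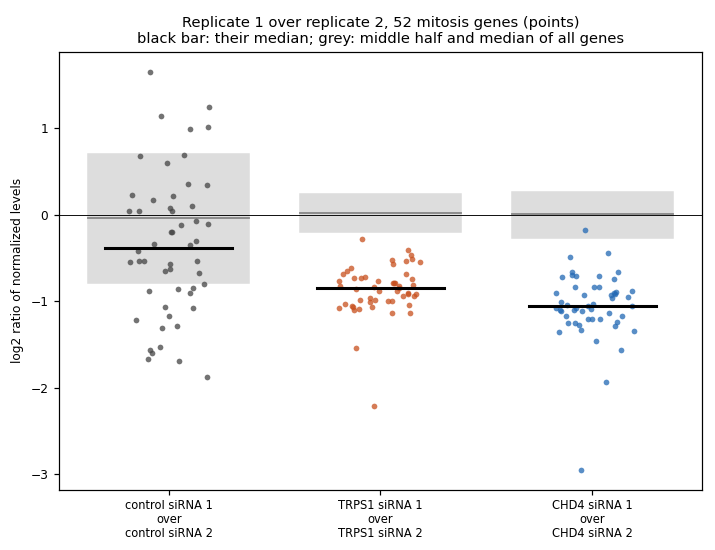
Log2 ratio of replicate 1 to replicate 2 within each group for the 52 mitosis genes (points, black bar at their median), with the interquartile range and median of all 13269 genes in grey. All 52 points lie under 0 in both knockdowns, while those of the controls fall on both sides, 34 below and 18 above.

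TRPS1 and CHD4 silencing were compared directly, which leaves the controls out. Of the 51 genes tested with edgeR's quasi-likelihood test, 0 differed by more than 2-fold at an unadjusted p under 0.05, 0 had an unadjusted p under 0.05 at any fold, and 0 passed adjustment, where 1.56% of all 13143 genes tested were lower and 2.12% higher with CHD4 siRNA by the same rule and 0% passed adjustment. The edgeR likelihood ratio test and DESeq2 gave 0 as well, by the fold rule and by adjusted p. Of all genes, 4.34% passed adjustment in the likelihood ratio test and 3.47% in DESeq2. With the replicate number as a block 0 again passed the fold rule, but 12 genes passed an adjusted p under 0.05, as did 25.7% of all genes. The median log2 difference, CHD4 siRNA minus TRPS1 siRNA, was 0.09, and values ran from -0.56 ± 0.32 for SMC4 to 1.02 ± 0.54 for CCNA2. Without the block, the 95% interval was -0.31 to 2.36 for CCNA2, -1.36 to 0.23 for SMC4, -0.72 to 1.25 for PLK1, -0.69 to 0.86 for AURKA and -1.12 to 1.16 for MKI67. The median distance from the estimate to the end of the interval was 1.02, and for 7 genes the interval lay within a fold of 2 in either direction, while that of the other 44 reached past it. These intervals count as spread a replicate difference that the knockdowns shared (r = 0.61 across 13269 genes). CKS2 was the single gene with both CHD4 siRNA libraries above both TRPS1 siRNA libraries, a pattern that 22.8% of all genes had, and 0 genes had the opposite order, which 24.1% had.

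Other genes of the cell cycle were read from set lists, also chosen with earlier results of these data known. Among 56 further mitotic genes tested, 13 fell and 0 rose upon TRPS1 silencing, with a median log2 fold change of -0.73, and 6 fell and 0 rose upon CHD4 silencing, with a median of -0.58. Of those that fell, the lowest upon TRPS1 silencing were TROAP (-1.86 ± 0.55), ARHGAP11A (-1.77 ± 0.73), PKMYT1 (-1.58 ± 0.60), KIF18B (-1.53 ± 0.50) and GTSE1 (-1.51 ± 0.48). PKMYT1 is the kinase that holds CDK1 inactive before mitosis, and KIF18B is a kinesin of growing microtubule ends. Control siRNA 1 was more than 2-fold above control siRNA 2 for TROAP, PKMYT1 and KIF18B, and more than 2-fold below it for ARHGAP11A. Against control siRNA 2 alone, the mean log2 change upon TRPS1 silencing was -1.04 for TROAP, -0.64 for PKMYT1 and -1.01 for KIF18B. For ARHGAP11A it was -2.31. Of those that fell upon CHD4 silencing, the lowest were CENPM (-1.61 ± 0.62), TROAP (-1.49 ± 0.56), KIF18B (-1.38 ± 0.54), HJURP (-1.28 ± 0.51) and KIF22 (-1.23 ± 0.45).

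Genes of S phase, which copy the DNA before mitosis, had negative log2 fold changes for all 28 tested in both knockdowns, with a median of -0.86 upon TRPS1 silencing and -0.87 upon CHD4 silencing. Of these, 5 fell upon TRPS1 silencing, GINS2 (-1.88 ± 0.65), CDT1 (-1.42 ± 0.55), TK1 (-1.41 ± 0.45), MCM5 (-1.32 ± 0.50) and MCM4 (-1.15 ± 0.42). MCM4 and MCM5 are subunits of the replicative helicase, CDT1 loads it, and TK1 makes thymidine monophosphate. For GINS2 and CDT1 control siRNA 1 was more than 2-fold above control siRNA 2. Against control siRNA 2 alone, their mean log2 changes upon TRPS1 silencing were -1.02 and -0.73. Upon CHD4 silencing 9 fell, the lowest being TYMS, thymidylate synthase (-2.09 ± 0.49), GINS2 (-1.84 ± 0.61), MCM5 (-1.76 ± 0.60), UHRF1 (-1.39 ± 0.53) and MCM4 (-1.34 ± 0.48). TYMS was at 38.8 and 30.2 CPM under control siRNA, 11.9 and 25.9 under TRPS1 siRNA and 5.61 and 10.5 under CHD4 siRNA, and it was also lower with CHD4 siRNA than with TRPS1 siRNA by the threshold (-1.23 ± 0.46, CHD4 siRNA minus TRPS1 siRNA).

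In the list of CDK inhibitors and G1 regulators 9 of 18 genes tested fell upon TRPS1 silencing and 6 upon CHD4 silencing, and 0 rose. The median log2 fold change was -1.06 and -0.86, and 3 and 4 genes had a positive value. The highest were CDKN2B, the inhibitor p15, at 1.71 ± 0.90 upon TRPS1 silencing, and CDK6, a kinase of G1, at 1.45 ± 0.62 and 1.45 ± 0.63, none of which passed the test. CDKN2A, the inhibitor p16, had 63.5 and 7.49 CPM in the control libraries, 6.05 and 7.96 CPM upon TRPS1 silencing and 6.55 and 8.36 CPM upon CHD4 silencing. Only control siRNA 1 stood high for this gene, and the log2 fold changes were -2.33 ± 0.93 and -2.24 ± 0.88. CDKN1A, the inhibitor p21, had 210.4 and 95.9 CPM under control siRNA, 53.0 and 69.6 under TRPS1 siRNA and 56.0 and 73.7 under CHD4 siRNA, with log2 fold changes of -1.32 ± 0.47 and -1.23 ± 0.47. CCND1, cyclin D1, a driver of G1 in luminal cells, went from 591 and 421 CPM in the controls to 225 and 220.0 CPM with TRPS1 siRNA and 211 and 205 CPM with CHD4 siRNA, with log2 fold changes of -1.18 ± 0.33 and -1.28 ± 0.36. CDK2 had log2 fold changes of -1.36 ± 0.45 and -1.74 ± 0.44. CCND3 (-1.86 ± 0.54), CDKN3 (-1.61 ± 0.54) and E2F2 (-1.60 ± 0.44) also fell upon TRPS1 silencing. CDKN3 (-1.37 ± 0.50) and CCNE1 (-1.27 ± 0.53) also fell upon CHD4 silencing. For CCND3 and CDKN3 control siRNA 1 was more than 2-fold above control siRNA 2. Of 12 genes of the DREAM complex with B-MYB, 0 fell upon TRPS1 silencing and 1, LIN37, upon CHD4 silencing (-1.68 ± 0.72). LIN37 had 21.1 and 5.67 CPM under control siRNA and 3.37 and 4.90 under CHD4 siRNA. Its mean log2 change against control siRNA 2 alone was -0.47. Of 15 subunits of the anaphase-promoting complex, 0 fell upon TRPS1 silencing and 1, CDC23, upon CHD4 silencing (-1.01 ± 0.38). The medians of these lists were -0.39 and -0.27 for DREAM and -0.27 and -0.43 for the complex subunits.

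**Figure D5:**
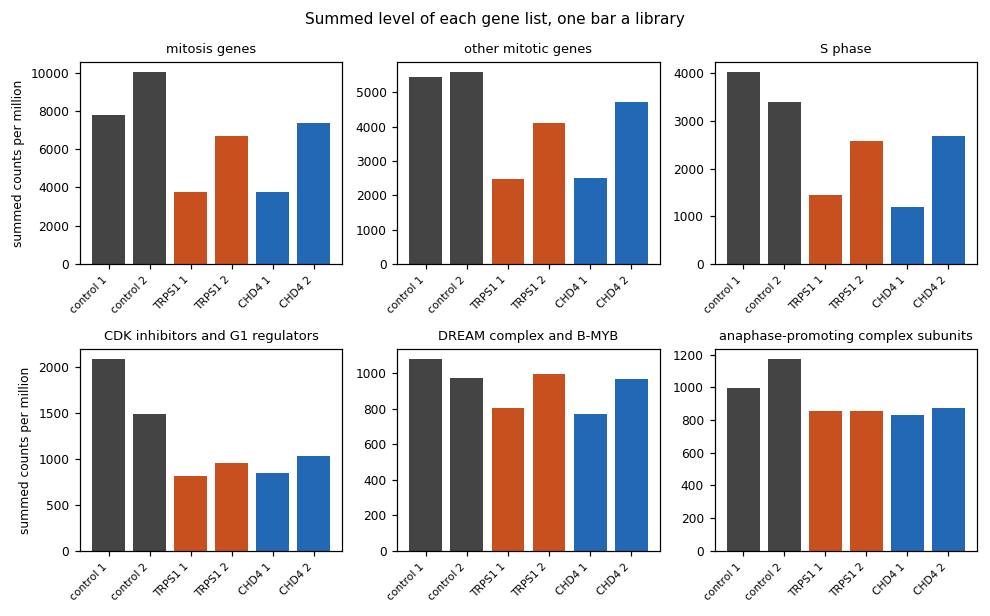
Summed TMM-normalized level of the mitosis genes and of 5 other gene lists in each library, in CPM, with 1 bar a library and axes starting at 0. The mitosis, other mitotic and S phase sums are lowest in replicate 1 of each knockdown, whereas DREAM and anaphase-promoting complex subunits vary less.

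A TRPS1 peak lay within 5 kb of a RefSeq start for 2 of the 44 genes with a window (4.55%), against 4.65% of 9893 tested genes, and within 50 kb for 7 (15.9%), against 13.7%. The median distance to the nearest peak was 360 kb, against 384 kb. The pair within 5 kb were CDCA3, whose nearest peak (chr12:6851343-6851564) began 57 bp upstream of its start, and CKS1B, whose nearest peak (chr1:154973559-154974005) ended 676 bp upstream of its start. AURKB, CENPF, HMMR, KIF23 and TOP2A had a peak within 50 kb, and that of CENPF, 34.0 kb from its start, lay inside the gene. The peak near CDCA3 covered 194 bases of its promoter window. These are shown with GATA letters in capitals, because CDCA3 fell upon CHD4 silencing and is the member with the nearest peak.
CDCA3 (chr12:6851343-6851536, minus strand): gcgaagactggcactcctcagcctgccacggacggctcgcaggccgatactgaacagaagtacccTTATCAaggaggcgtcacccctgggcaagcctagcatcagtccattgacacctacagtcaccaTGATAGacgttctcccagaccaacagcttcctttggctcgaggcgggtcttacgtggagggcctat
Both GATA matches of this stretch lie upstream of the start, and 22.7% of the 44 genes and 29.1% of all genes held such letters in a window. The peak list has 1 entry for all ChIP-seq libraries and gives no score, so a peak has no replicate error here.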

How the data were processed

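RNA-seq of 6 T47D libraries (control, TRPS1 and CHD4 siRNA, 2 each) was analysed, and groups follow the labels. The authors depleted ribosomal RNA, trimmed and aligned the reads (STAR), summed them by gene (HTSeq 0.9.0) and deposited unnormalized counts. Strand setting and annotation are not given in the sources used here. ChIP-seq reads were aligned with BWA and peaks called with MACS2 by the authors, and the deposited list gives hg38 positions with no score.

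The members and lists were chosen with earlier results of these data known. Counts were fitted in edgeR 4.0.16 (R 4.3.3): over 2 CPM in at least 2 libraries, TMM factors, quasi-likelihood F-test, prior count 0.125, Benjamini-Hochberg adjustment. A gene fell or rose with a fold over 2 and unadjusted p under 0.05. Levels use TMM over all 6 libraries. Ratios between single libraries add 0.5 counts. An exact permutation of 2 against 2 libraries cannot give a p below 0.333. Libraries held 10333138 to 14668358 counts. The fit was tested on simulated data, where recovery of planted changes was required only at a set spread between libraries. That spread was not the one estimated from these libraries, so the power of the tests here was not shown. Members with values in every library were those that fell (up to 12 by size), 12 set genes and the highest and lowest of each role group. Of other lists, up to 5 genes that changed are named, and more of the CDK inhibitors and G1 regulators. SKA1, PIMREG and CDKN1C were not analysed here. Motifs and peaks were matched in Python 3.11.15. Alternatives were DESeq2 1.42.0, the likelihood ratio test, other scalings and filters, a joint fit, replicate number as a block, a higher prior and omission of single libraries.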

Additional observations from a re-analysis of the deposited data

How the results depend on the processing

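Depth limits what can be said of SPC25, at or under 4 counts in replicate 1 of both knockdowns, and each group rests on 2 libraries. Scaling by library totals alone left 7 (TRPS1) and 3 (CHD4) genes that fell, where 1.96% and 1.72% of all genes did. It gave log2 fold changes upon CHD4 silencing of 0.12 for CENPA, 0.0645 for CENPF and 0.0675 for DLGAP5. DESeq2 gave 8 genes that fell upon CHD4 silencing and 1 with an adjusted p under 0.05 upon TRPS1 silencing. Without a filter on low counts, 10 genes fell upon CHD4 silencing (3.55% of all genes), 1 of them (UBE2C) at an adjusted p under 0.05 (0.585% of all genes). MAD2L1 was then at -0.0199. Between the knockdowns CCNA2 was higher with CHD4 siRNA by the fold rule, 1 gene against 0, where 2.37% of all genes were higher and 1.47% lower. With over 2 CPM in every library CENPA was at 0.0292 upon CHD4 silencing, and with all 6 libraries in 1 fit MAD2L1 was at -0.0051. The cause of these shifts was not tested. RLE factors and a prior count of 2 changed no count by more than 1.5 times.

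Replicate numbers were taken as shared numbers only, with no pairing in the main fits. Deviations of replicate 1 correlated at 0.03 and 0.004 between control siRNA and the TRPS1 and CHD4 siRNA groups, but at 0.61 between the knockdowns. The low values gave no ground for pairing with the controls. The main comparison between the knockdowns, however, did not account for a replicate difference that they shared. With a replicate block, 23 genes fell upon TRPS1 silencing (3.71% of all genes) and 10 upon CHD4 silencing (2.93% of all genes). Of these, 0 passed an adjusted p under 0.05, and MAD2L1 was at -0.0899 upon CHD4 silencing. Between the knockdowns 12 genes (4 lower and 8 higher with CHD4 siRNA) differed at an adjusted p under 0.05. So did 25.7% of all genes, and MKI67 was at -0.0234.

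Leaving out 1 library at a time, with the lone library of that group assumed to vary like the other group, gave 0 to 19 genes past the threshold upon TRPS1 silencing (0 to 20 by adjusted p, median -1.30 to -0.45), 0 to 10 upon CHD4 silencing (0 to 7 by adjusted p, median -1.25 to -0.27) and 0 to 1 between the knockdowns (0 to 0 by adjusted p, median -0.51 to 0.61). Genes whose log2 fold change spanned 0 upon TRPS1 silencing were ASPM -1.18 to 0.48, BUB3 -0.69 to 0.15, CDK1 -1.43 to 0.45, CENPE -0.32 to 1.2, CENPF -0.13 to 0.49, DLGAP5 -0.72 to 0.64, KIF14 -1.15 to 0.076, KIF18A -1.01 to 0.12, MAD2L1 -1.29 to 0.69, NCAPG -1.18 to 0.51, NUF2 -0.98 to 0.032, SMC4 -0.83 to 0.17 and TOP2A -0.93 to 0.29. Upon CHD4 silencing they were ASPM -0.92 to 0.90, CCNA2 -1.21 to 0.25, CDK1 -1.36 to 0.55, CENPA -0.47 to 0.36, CENPE -1.28 to 0.65, CENPF -0.59 to 0.33, CKS2 -0.82 to 0.48, DLGAP5 -0.81 to 0.71, ECT2 -0.76 to 0.40, KIF14 -1.10 to 0.085, KIF18A -1.20 to 0.17, MAD2L1 -1.25 to 1.02, NCAPG -1.01 to 0.78, NUF2 -1.0 to 0.33 and TOP2A -0.92 to 0.31. Between the knockdowns 47 of 51 genes spanned 0, among them, of the 8 followed one by one (AURKA, CCNA2, CDCA3, CENPE, ECT2, MKI67, PLK1 and SMC4), AURKA -0.27 to 0.52, CDCA3 -0.77 to 0.46, CENPE -1.53 to 0.016, MKI67 -0.71 to 0.60 and PLK1 -0.36 to 0.72. The promoter and peak counts kept within 1.5 times of their values with bases before the start alone and with peaks within 1 kb.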
